A study of Rattus norvegicus with 20 samples.

Results

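The genes described here are those of the embryonic contractile apparatus and of muscle regeneration: the myosin heavy chains Myh3 (embryonic) and Myh8 (perinatal), the light chain Myl4 (embryonic and atrial), the myogenic regulatory factors Myog, Myod1, Myf5 and Myf6, the satellite cell factor Pax7, the cell adhesion gene Cdh15 and the fusion gene Mymk. They were chosen by gene symbol, and 9 of the 10 were measured, each by 1 probe set, among 15049 probe sets with a single gene name and 24871 deposited in all. Mymk was not analysed here. RNA came from the vocal folds of adult male Sprague-Dawley rats and was hybridised to Affymetrix Clariom rat arrays. In the injured animals the lamina propria had been separated from the underlying thyroarytenoid muscle and removed, and the vocal folds were collected 1, 4 or 8 weeks later. The control animals were uninjured. Each group held 5 animals with 1 array each, 20 arrays in all. The folds of both sides were dissected for RNA, while the study's methods describe the injury as unilateral or bilateral, so an injured sample may include an uninjured fold. No transgene or drug treatment distinguished the groups.

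In developing muscle, embryonic and perinatal myosins are made first and are later replaced by adult isoforms. When adult muscle is damaged, quiescent satellite cells marked by Pax7 enter the cell cycle and switch on Myf5 and Myod1. They then express Myog as they leave the cycle and differentiate, and fuse into new fibres that carry Myh3 and Myh8 for a time. Laryngeal muscles, the thyroarytenoid among them, are branchiomeric muscles with fast fibres.

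The first bases upstream of a gene hold much of what recruits its transcription, and for muscle genes the E-box (CANNTG), which the myogenic factors bind as dimers with E proteins, is the best known element. Promoter windows of 300 bases, 250 before and 50 after the start, were available in RefSeq (build GRCr8) for 8 of the 10 genes, Myod1 and Mymk being the others. The windows of 4 genes are printed because these genes carry the contrast in the signals below: Myh3, Myl4 and Myog, which were called higher at 1 week, and Myf6, which followed the adult muscle genes from array to array. Each is written 5′ to 3′ on the gene's strand with the E-boxes in capitals. They lie at chr10:52268935-52269234 on the plus strand (Myh3), chr10:89975900-89976199 on the plus strand (Myl4), chr13:48297226-48297525 on the plus strand (Myog) and chr7:44701264-44701563 on the minus strand (Myf6).
Myh3: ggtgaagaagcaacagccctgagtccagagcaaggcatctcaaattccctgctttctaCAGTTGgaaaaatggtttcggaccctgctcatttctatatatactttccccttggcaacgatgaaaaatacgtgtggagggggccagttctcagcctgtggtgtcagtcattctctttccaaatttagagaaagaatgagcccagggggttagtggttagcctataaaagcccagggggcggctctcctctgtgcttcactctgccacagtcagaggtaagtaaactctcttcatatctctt
Myl4: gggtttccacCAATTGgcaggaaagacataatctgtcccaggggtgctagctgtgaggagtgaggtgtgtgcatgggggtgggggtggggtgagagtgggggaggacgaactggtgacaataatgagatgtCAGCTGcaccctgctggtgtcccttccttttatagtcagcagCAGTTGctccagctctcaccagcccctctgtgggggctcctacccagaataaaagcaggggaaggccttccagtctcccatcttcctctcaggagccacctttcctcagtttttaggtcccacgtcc
Myog: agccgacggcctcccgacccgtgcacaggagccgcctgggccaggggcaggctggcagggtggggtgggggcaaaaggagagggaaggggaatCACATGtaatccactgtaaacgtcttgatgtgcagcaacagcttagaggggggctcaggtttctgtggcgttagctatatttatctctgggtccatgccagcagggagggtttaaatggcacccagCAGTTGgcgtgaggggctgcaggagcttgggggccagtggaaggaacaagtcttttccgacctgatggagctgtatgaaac
Myf6: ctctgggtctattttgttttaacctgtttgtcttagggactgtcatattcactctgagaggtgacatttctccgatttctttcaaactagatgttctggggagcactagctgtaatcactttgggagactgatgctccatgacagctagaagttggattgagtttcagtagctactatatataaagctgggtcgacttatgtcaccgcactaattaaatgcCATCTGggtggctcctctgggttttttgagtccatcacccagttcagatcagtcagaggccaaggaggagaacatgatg

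Myh3 had 1 E-box, beginning at position -192 from the start, Myl4 had 3, at -240, -119 and -77, Myog had 2, at -157 and -31, and Myf6 had 1, at -29. The windows of Myh8, Myf5 and Pax7 had 0, and that of Cdh15 had 3. The E-box letters occur in 72.1% of the 33465 rat promoter windows of this length, so they are common letters. The variant CAGCTG, which occurs in 15.1% of windows, was found in Myl4 at -119, where it is also one of the CANNTG matches. A loose form of the MEF2 core, CTANNNNTA with any base in its middle, was searched on both strands and was present in 22.4% of windows. It was found in Myh3 at -158, in Myog at -83 and in Myf6 at -145 and -76. The match at -145 reads CTAGCTGTA, with G and C in its middle, and the others hold only A and T there. The letters TATAAA, searched on both strands and present in 14.2% of windows, were found in Myh3 at -30, in Myl4 at -91, in Myf6 at -71, overlapping the nearer MEF2-like core, and in Myf5 at 23 after the start. The CArG box, present in 1.64% of windows, was in 0 of the 8. The M-CAT letters CATTCCT, present in 5.17%, were in Pax7 alone of the 8. These matches describe the letters in the windows and no site was tested. By gene order in the annotation, Myf5 and Myf6 are neighbours on chromosome 7 with 0 coding genes between them. Myh3 and Myh8 lie on chromosome 10 with 3 coding genes between them, the adult heavy chains Myh2, Myh1 and Myh4.

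Skeletal muscle RNA was abundant in all groups. The mean signal of 30 adult sarcomere genes (of 36 listed) was 8.73 ± 0.90 in control, 8.56 ± 0.13 at 1 week, 8.34 ± 0.37 at 4 weeks and 8.14 ± 0.96 at 8 weeks (log2, SD, n = 5 each). This muscle level varied between animals of a group: control replicate 3 was at 7.27 and 8-week replicate 3 at 6.54. In whole tissue of this kind, fewer muscle cells and less muscle RNA per cell cannot be told apart. The arrays also differed technically between injured and control animals. The mean of 23 background probe sets lay between 3.17 and 3.61 on the 15 injured arrays and between 2.60 and 2.90 on the 5 control arrays, and that of 9 hybridization control probe sets lay between 9.74 and 10.27 and between 8.62 and 9.39, with no overlap in either case. Array medians lay between 4.83 and 4.92 on the injured arrays and between 4.58 and 4.94 on the control arrays, control replicate 3 being the lowest. These technical values move with every comparison against control given here. The hybridization signal was entered as a covariate, with values given beside the results it touches, and the part of the background signal was not tested.

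Several of the 9 genes were dim. Of the 20 arrays, the brightest background probe set was exceeded on 19 by Myh8, 14 by Myh3, 12 by Myl4, 6 by Myf6 and 1 by Myf5, and on 0 by Myog, Myod1, Pax7 and Cdh15. Against the mean of the background probe sets, Myod1 was above on 8 arrays, Myf5 on 17 and the other 7 genes on all 20. The signals of Myod1 thus lay at the background level, and 8 of the 9 genes, all but Myod1, passed a filter that removed the dimmest 25% of probe sets.

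At 1 week Myh3, Myl4 and Myog stood higher than in control, and the other 6 genes differed from it by between -0.20 and 0.64 on the log2 scale. With a limma fit adjusted over all 15049 probe sets at a threshold of 0.05, 3 of the 9 genes were called higher (Myh3, Myl4 and Myog) and 0 lower, where 21.3% of all probe sets were called in either direction, 11.2% higher and 10.2% lower. Since these genes were proposed with this comparison known, their 1-week values are given as a description with no p. Comparisons of later groups against 1 week use the same 1-week arrays, so their p values are not independent of that choice. With the hybridization signal as a covariate, 0 of the 3 were called, where 64 of all probe sets were called in place of 3209. The differences under it were 2.73 for Myh3, 1.21 for Myl4 and -0.05 for Myog. This signal separated injured from control arrays without overlap, so its part and that of the injury cannot be told apart. The median difference of the 9 from control was 0.32 at 1 week, 0.08 at 4 weeks and 0.18 at 8 weeks on the log2 scale, beside medians over all probe sets of 0.02, 0.04 and 0.04. At 4 and 8 weeks 0 of the 9 were called against control, where 13% and 11.6% of all probe sets were called. At an unadjusted p under 0.05 the counts were 1 at 4 weeks and 2 at 8 weeks. Of the 15049 probe sets, 4339 and 4021 passed that threshold. An ordinary contrast without moderation called 0 at either time after adjustment.

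**Figure D1:**
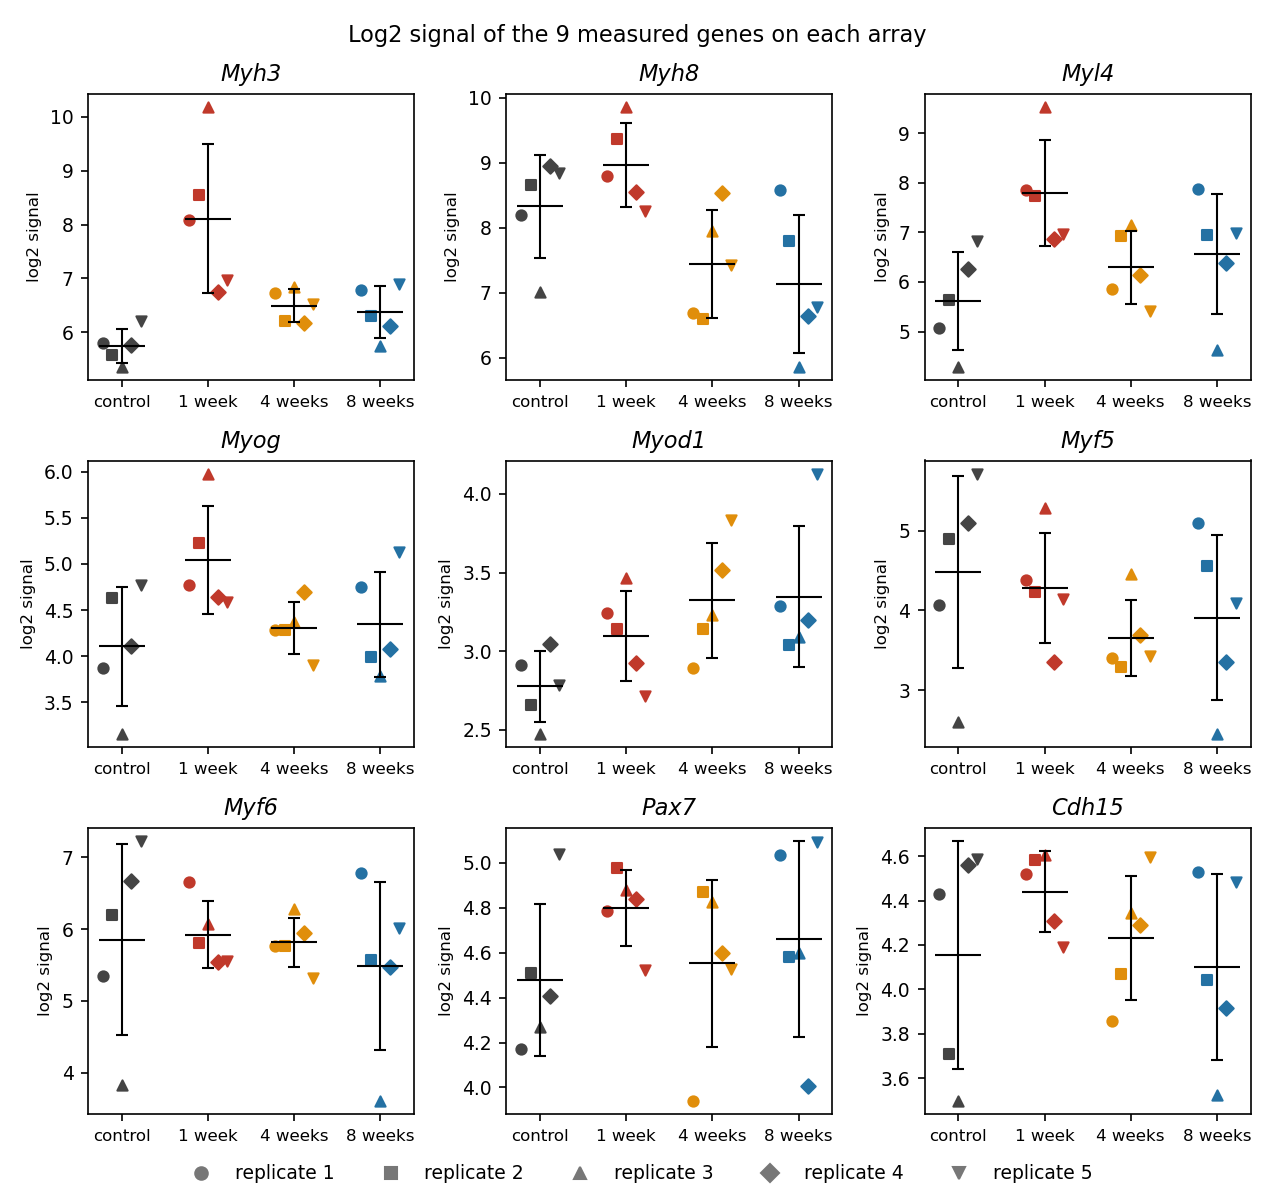
Log2 signal of each of the 9 genes on every array, by group in the order control, 1, 4 and 8 weeks; points are arrays and the bars show the group mean ± SD (n = 5). The 1-week points of Myh3, from 6.74 to 10.19, and of Myl4, from 6.87 to 9.54, lie above all control points, while those of Myf6 and Myf5 lie within the control range.

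Myh3 encodes the embryonic myosin heavy chain, a motor protein of newly formed fibres. Its log2 signals at 1 week were 8.08, 8.55, 10.19, 6.74 and 6.98, against 5.79, 5.58, 5.35, 5.77 and 6.21 in control. All 5 injured animals were above every control animal, as were those of 8.21% of probe sets, and the injured animals were spread much more widely. The mean was 8.11 ± 1.38 at 1 week and 5.74 ± 0.32 in control (SD, n = 5 each), a difference of 2.37 with a standard error of 0.42 and a 95% interval of 1.50 to 3.23, or 5.15-fold. Without 1-week replicate 3, the highest array, the difference was 1.85, the lowest of the values with 1 array left out.

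Later, Myh3 signals were 6.74, 6.20, 6.84, 6.17 and 6.53 at 4 weeks and 6.79, 6.31, 5.75, 6.12 and 6.90 at 8 weeks. Most of these later arrays were still at or above the upper control values, with 3 of 5 above every control at each time, and most were below the 1-week range. Against control the difference was 0.75 at 4 weeks (95% interval -0.11 to 1.62, adjusted p = 0.242) and 0.63 at 8 weeks (-0.23 to 1.50, adjusted p = 0.352), neither passing the test. A two-sided exact permutation test of the 5 against 5 animals, run in 5 comparisons for each of the 9 genes, gave an unadjusted p of 0.0238 at 4 weeks and 0.0556 at 8 weeks, where the smallest p it can give is 0.00794. Fitted on the 4-week and control groups alone, the 4-week difference had an adjusted p of 0.0345. That fit called 956 of all probe sets, in place of 1952.

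Against 1 week, Myh3 differed by -1.61 at 4 weeks (95% interval -2.48 to -0.74, adjusted p = 0.144) and by -1.73 at 8 weeks (-2.60 to -0.86, adjusted p = 0.113), neither passing. These comparisons share the 1-week arrays, whose values were known when the genes were proposed, so their p values are not independent of that choice. Single arrays decided the call here: without 1-week replicate 4 the difference was -1.95 at 4 weeks (adjusted p = 0.0322) and -2.07 at 8 weeks (adjusted p = 0.0202), and without 1-week replicate 5 it was -2.01 at 8 weeks (adjusted p = 0.0389). Over all probe sets these fits called 46 in place of 19 at 4 weeks, and 41 in place of 35 at 8 weeks each time.

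Myh8 encodes the perinatal heavy chain, which follows Myh3 in developing fibres. Its signals were 8.79, 9.37, 9.86, 8.56 and 8.26 at 1 week, against 8.20, 8.66, 7.01, 8.95 and 8.84 in control. The groups overlapped, and the gene was bright in uninjured animals. The mean was 8.97 ± 0.65 at 1 week and 8.33 ± 0.79 in control (SD, n = 5 each), a difference of 0.64 with a 95% interval of -0.32 to 1.59.

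The later Myh8 signals were 6.69, 6.59, 7.95, 8.54 and 7.43 at 4 weeks and 8.57, 7.79, 5.86, 6.65 and 6.79 at 8 weeks. They reached below control, where only replicate 3 was under 8.20. The difference from control was -0.89 at 4 weeks (adjusted p = 0.207) and -1.20 at 8 weeks (95% interval -2.16 to -0.24, adjusted p = 0.0946), neither passing. The 8-week value passed without control replicate 3 (-1.53, adjusted p = 0.0288) or without 8-week replicate 1 (-1.56, adjusted p = 0.0308), and with array weights (-1.40, adjusted p = 0.0177). Over all probe sets these settings called 2356, 1354 and 3619, in place of 1748. Against 1 week the difference was -1.53 at 4 weeks (adjusted p = 0.231) and -1.84 at 8 weeks (adjusted p = 0.129), the 8-week one passing without 8-week replicate 1 (-2.20, adjusted p = 0.0332). There 34 of all probe sets were called, in place of 35.

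Myl4 encodes an alkali light chain of myosin made in embryonic skeletal muscle and in the atria of the heart. Its signals were 7.85, 7.73, 9.54, 6.87 and 6.97 at 1 week, against 5.08, 5.65, 4.28, 6.26 and 6.82 in control. As with Myh3, all 5 injured animals were above every control, although the lowest of them, 6.87, was close to the highest control, 6.82. The mean was 7.79 ± 1.07 at 1 week and 5.62 ± 0.99 in control (SD, n = 5 each), a difference of 2.17 with a standard error of 0.55 and a 95% interval of 1.03 to 3.31, or 4.51-fold. Without 1-week replicate 3 it was 1.74.

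The Myl4 signals were 5.86, 6.92, 7.15, 6.14 and 5.41 at 4 weeks and 7.87, 6.96, 4.64, 6.39 and 6.98 at 8 weeks. These overlapped the control range at both times, and 8-week replicate 3, the array with the least muscle signal, was the lowest of them. The difference from control was 0.68 at 4 weeks (adjusted p = 0.441) and 0.95 at 8 weeks (95% interval -0.19 to 2.09, adjusted p = 0.283). Against 1 week it was -1.50 at 4 weeks (adjusted p = 0.389) and -1.23 at 8 weeks (adjusted p = 0.464). None of these 4 passed.

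**Figure D2:**
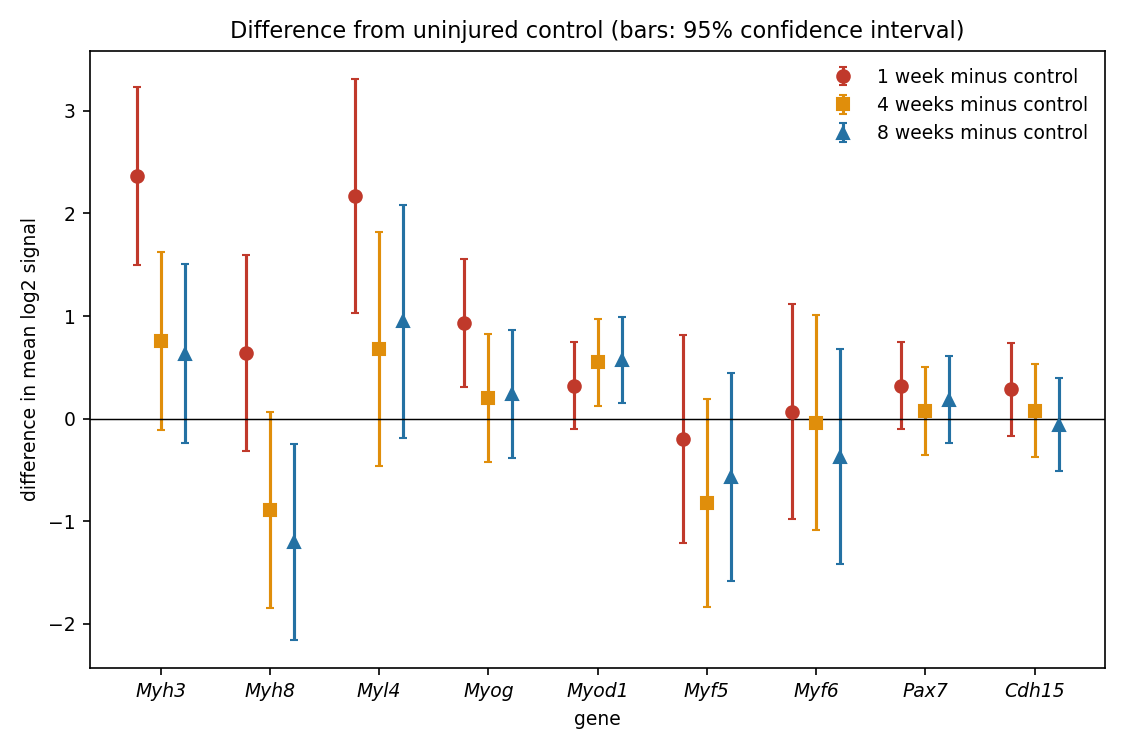
Difference in mean log2 signal from uninjured control for the 9 genes at 1, 4 and 8 weeks; points are differences of group means (n = 5 each) and bars are 95% confidence intervals of the limma fit. The 1-week intervals of Myh3, Myl4 and Myog lie above 0, while those of Myf5 and Myf6 span it widely, from -1.21 to 0.82 and from -0.98 to 1.12.

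Among the myogenic regulatory factors, which are basic helix-loop-helix activators of muscle genes, Myog was the one called at 1 week. Myog encodes myogenin, the factor of terminal differentiation. Its signals were 4.77, 5.23, 5.98, 4.64 and 4.59 at 1 week, against 3.87, 4.63, 3.16, 4.11 and 4.77 in control. The groups overlapped at their edges, and control replicate 3 was the lowest of the 20 arrays. The mean was 5.04 ± 0.58 at 1 week and 4.11 ± 0.65 in control (SD, n = 5 each), a difference of 0.93 with a 95% interval of 0.31 to 1.56, or 1.91-fold. The call was lost without control replicate 1 (0.87), 3 (0.70) or 4 (0.93) and without 1-week replicate 2 (0.89) or 3 (0.70). With the hybridization signal as a covariate the difference turned to -0.05.

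Myog signals were 4.29, 4.28, 4.37, 4.69 and 3.90 at 4 weeks and 4.75, 3.99, 3.78, 4.08 and 5.13 at 8 weeks. These lay largely within the control range. The difference from control was 0.20 (adjusted p = 0.705) at 4 weeks and 0.24 (adjusted p = 0.666) at 8 weeks. Against 1 week it was -0.73 (adjusted p = 0.469) at 4 weeks and -0.70 (adjusted p = 0.448) at 8 weeks.

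Myod1 encodes MyoD, the factor that commits activated satellite cells. Its signals were 2.91, 2.66, 2.47, 3.05 and 2.78 in control, 3.24, 3.14, 3.46, 2.92 and 2.72 at 1 week, 2.89, 3.14, 3.23, 3.52 and 3.84 at 4 weeks, then 3.28, 3.04, 3.09, 3.20 and 4.13 at 8 weeks. All groups overlapped, and 8-week replicate 5 stood apart at the top. The differences from control were 0.32 at 1 week, 0.55 at 4 weeks (95% interval 0.12 to 0.97, adjusted p = 0.0773) and 0.57 at 8 weeks (0.15 to 1.00, adjusted p = 0.0717), the 4-week value passing without 4-week replicate 1 (0.66, adjusted p = 0.0442). Without that array 1857 of all probe sets were called at 4 weeks, in place of 1952. The mean of the background probe sets was 2.70 in control, 3.39 at 1 week, 3.30 at 4 weeks and 3.26 at 8 weeks. The Myod1 means lay close to these, at 2.78 in control, 3.10 at 1 week, 3.32 at 4 weeks and 3.35 at 8 weeks. The part of the background in the Myod1 values was not tested.

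Myf5 and Myf6 are the neighbouring pair of myogenic factors, Myf5 an early factor of progenitors and of muscle spindles, and Myf6 (MRF4) the factor of mature fibres. Myf5 signals were 4.07, 4.90, 2.60, 5.10 and 5.72 in control, 4.38, 4.23, 5.29, 3.36 and 4.15 at 1 week, 3.40, 3.29, 4.46, 3.70 and 3.43 at 4 weeks, then 5.09, 4.56, 2.45, 3.36 and 4.10 at 8 weeks. Control replicate 3 and 8-week replicate 3 were the lowest arrays. Myf5 differed from control by -0.20 at 1 week, -0.82 at 4 weeks (adjusted p = 0.278) and -0.57 at 8 weeks (adjusted p = 0.495), the 4-week value passing without control replicate 3 (-1.29, adjusted p = 0.0487). Without that array 2599 of all probe sets were called at 4 weeks, in place of 1952.

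Myf6 signals were 5.35, 6.20, 3.83, 6.67 and 7.23 in control, 6.65, 5.80, 6.08, 5.54 and 5.55 at 1 week, 5.76, 5.77, 6.28, 5.95 and 5.33 at 4 weeks, then 6.78, 5.57, 3.60, 5.47 and 6.01 at 8 weeks. The same 2 arrays were the lowest, and the control animals spanned nearly the whole range of the series. Myf6 differed from control by 0.07 at 1 week, -0.04 at 4 weeks (adjusted p = 0.971) and -0.37 at 8 weeks (adjusted p = 0.693). Its sign turned in each of these comparisons with single arrays left out: the 1-week difference was -0.44 without control replicate 3 and 0.41 without control replicate 5, and that of Myf5 was -0.67 and 0.11.

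Pax7 and Cdh15 mark the satellite cells themselves, Pax7 as their defining transcription factor and Cdh15 (M-cadherin) as the adhesion molecule at their contact with the fibre. Pax7 signals were 4.17, 4.51, 4.27, 4.41 and 5.04 in control, 4.78, 4.98, 4.88, 4.84 and 4.52 at 1 week, 3.94, 4.87, 4.83, 4.60 and 4.53 at 4 weeks, then 5.03, 4.58, 4.60, 4.01 and 5.09 at 8 weeks. At 1 week all 5 animals were above 4 of the 5 controls and below control replicate 5. Pax7 differed from control by 0.32 at 1 week (95% interval -0.11 to 0.75), 0.07 at 4 weeks (adjusted p = 0.849) and 0.18 at 8 weeks (adjusted p = 0.614).

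Cdh15 signals were 4.43, 3.71, 3.50, 4.56 and 4.59 in control, 4.52, 4.58, 4.61, 4.31 and 4.19 at 1 week, 3.86, 4.07, 4.34, 4.29 and 4.60 at 4 weeks, then 4.53, 4.04, 3.52, 3.92 and 4.48 at 8 weeks. The groups overlapped throughout. Cdh15 differed from control by 0.28 at 1 week, 0.08 at 4 weeks (adjusted p = 0.855) and -0.06 at 8 weeks (adjusted p = 0.899).

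Between injured groups the 9 genes leaned one way but did not pass. Of the 9, 8 were lower at 4 weeks than at 1 week and 8 were lower at 8 weeks than at 1 week, Myod1 being the exception in both, and both counts rest on the same 1-week arrays. The genes were proposed with those 1-week values known, and that choice favours such a lean. The median differences were -0.62 and -0.44, beside 0.02 over all probe sets in both. The fit called 0 of 9 in each, where 0.126% and 0.233% of all probe sets were called. At an unadjusted p under 0.05 the count was 4 of 9 in each, and 1367 and 1500 of the 15049 probe sets passed. The contrast without moderation called 0 of the 9 after adjustment. Between 8 and 4 weeks the differences lay between -0.33 and 0.27, and 0 of 9 were called where 0% of all probe sets were. The count was also 0 without moderation, and 0 at an unadjusted p under 0.05, where 377 of all probe sets passed.

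One animal stood at the top for many of these genes. Of the 20 arrays, 1-week replicate 3 had the highest signal for 5 of the 9 (Myh3, Myh8, Myl4, Myog and Cdh15), and for 6 of 11 other muscle genes of embryonic and fetal life (Tnnt2, Tnnc1, Tnni1, Chrng, Igf2 and Dlk1). Over all probe sets it was the highest array for 4.29%. For Cdh15 the lead was narrow, 4.61 beside 4.60 in 4-week replicate 5. The array also had the highest mean of the fibroblast genes of healing tissue (9.14) and of the cardiac muscle genes (4.93), Tnnt2 among the latter. It was singled out after its values were seen, so these counts and means are a description. Its adult sarcomere mean lay between 8.41 and 8.70, the range of the 1-week animals, which had the narrowest spread of muscle signal of the 4 groups.

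Within groups, the genes differed in how closely they followed the amount of muscle signal on an array. Over deviations from the group means on the 20 arrays, Pearson's r with the adult sarcomere mean was 0.93 for Myf6, 0.87 for Myf5, 0.80 for Myh8, 0.79 for Cdh15, 0.72 for Myl4, 0.66 for Myog, 0.44 for Myod1, 0.41 for Pax7 and 0.36 for Myh3. Myf6 and Myf5 thus varied with adult muscle genes from animal to animal, and Myh3 least of the 9 by Pearson's r. By rank the value for Myh3 was higher, with a Spearman's rho of 0.51. Among pairs of the 9 genes, r was 0.90 for Myf5 and Myf6, 0.89 for Myl4 and Myf5, 0.72 for Myh3 and Myl4, 0.70 for Myh3 and Myog, and 0.51 for Myh3 and Myh8. These are descriptions over arrays that share the tissue dissected and the array's own brightness.

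**Figure D3:**
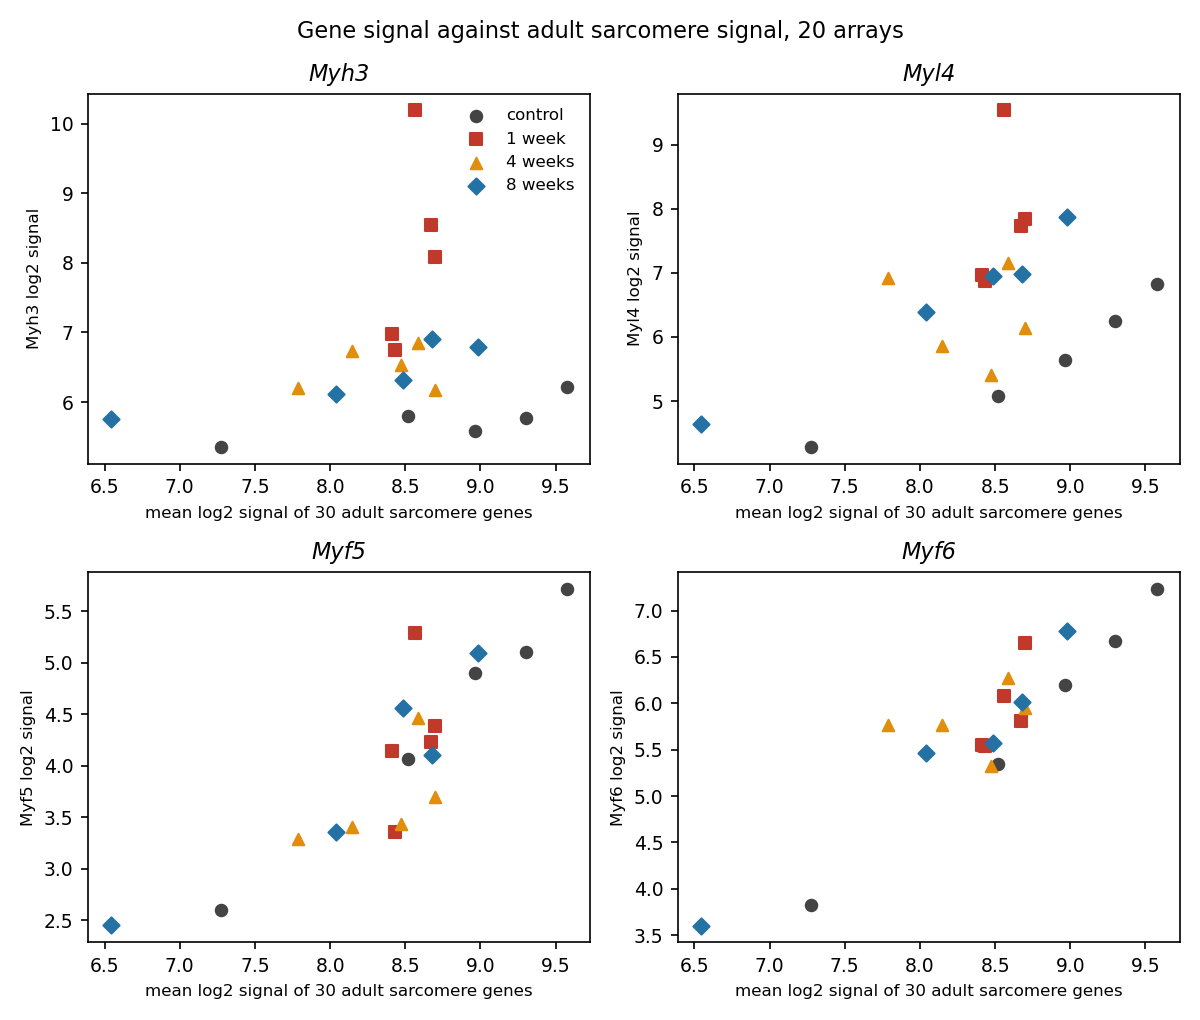
Log2 signal of Myh3, Myl4, Myf5 and Myf6 (vertical axes) against the mean log2 signal of 30 adult sarcomere genes (horizontal axes) on the 20 arrays; each point is 1 array and its shape and colour give the group. Myf5 and Myf6 run along the sarcomere signal from control replicate 3 (7.27) and 8-week replicate 3 (6.54) upwards, while the 1-week points of Myh3 and Myl4 stand above the control points at like sarcomere signal.

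Taking the adult sarcomere mean from a gene's signal on the same array sets the gene against the muscle signal of its own animal. The quantity has no absolute meaning, since probe sets differ in brightness, so groups are compared only for the same gene. For Myl4 it was -0.85, -0.94, 0.97, -1.56 and -1.44 at 1 week and -1.11, -1.53, -1.91, -1.65 and -1.70 at 8 weeks, against -3.44, -3.32, -2.99, -3.04 and -2.75 in control. All animals at 1 and at 8 weeks were above all controls, while 4 weeks, from -3.07 to -0.86, overlapped control. Of all probe sets, 0.179% were higher without overlap at 8 weeks on this scale, and 0.91% at 1 week. With the sarcomere mean as a covariate in the fit, the Myl4 difference at 8 weeks was 1.56 (adjusted p = 0.0168). That fit called 1801 of all probe sets, in place of 1748, with Myod1, at the background level, among them (0.70, adjusted p = 0.0259). The background and hybridization signals separated injured from control arrays without overlap. Their part in Myl4 on this scale was not tested.

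For Myh8 the same quantity was 0.09, 0.70, 1.30, 0.12 and -0.16 at 1 week and -0.41, -0.69, -0.69, -1.39 and -1.89 at 8 weeks, against -0.32, -0.30, -0.26, -0.35 and -0.74 in control. The 1-week animals were all above the controls and the 8-week animals all below the 1-week animals, a place held by 0.0332% of probe sets in that last comparison. At 4 weeks it ran from -1.46 to -0.16 and overlapped control. With the sarcomere mean as a covariate, Myh8 at 8 weeks differed from 1 week by -1.43 (adjusted p = 0.0383). The gene was proposed with the 1-week values known, so this p is not independent of that choice. The fit with this covariate called 47 of all probe sets there, in place of 35. Myh3 and Myog, on the same scale, also did not overlap control at 1 week, and Myh3 averaged -2.99 in control, -0.45 at 1 week, -1.84 at 4 weeks and -1.77 at 8 weeks.

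The signal of Myh3 minus that of Myh8 sets the embryonic against the perinatal heavy chain within each array. Its level has no absolute meaning, since probe sets differ in brightness, so groups alone are compared. It was -2.40, -3.08, -1.66, -3.18 and -2.63 in control, -0.72, -0.83, 0.32, -1.81 and -1.28 at 1 week, 0.05, -0.39, -1.10, -2.37 and -0.91 at 4 weeks, then -1.78, -1.48, -0.10, -0.53 and 0.11 at 8 weeks. Group means were -2.59 in control and -0.86, -0.94 and -0.76 at 1, 4 and 8 weeks, the injured groups being close to each other. The groups overlapped through control replicate 3 at the top of its group and through 1-week replicate 4, 4-week replicate 4 and 8-week replicate 1 at the bottom of theirs. Within groups Myh8 followed the adult sarcomere mean (r = 0.80) more closely than Myh3 did (0.36), so this difference can also move with an array's muscle signal. The background and hybridization signals also separated injured from control arrays. The part of either in this difference was not tested. The components differed: at 1 week Myh3 was 2.37 and Myh8 0.64 above control in mean signal, while at 8 weeks Myh3 was 0.63 above and Myh8 1.20 below it, these 8-week values not passing the test.

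**Figure D4:**
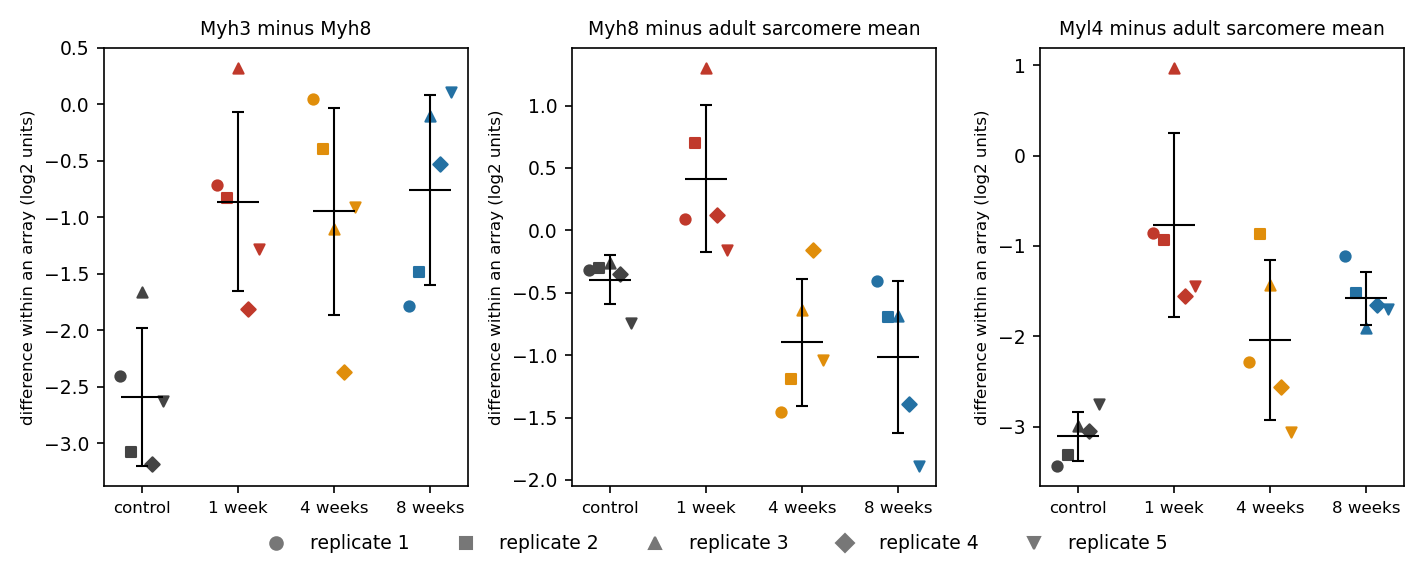
Differences in log2 signal within each array by group: Myh3 minus Myh8, and Myh8 and Myl4 each minus the mean of 30 adult sarcomere genes; points are arrays and bars the group mean ± SD (n = 5). Myh3 minus Myh8 averages -2.59 in control and -0.86, -0.94 and -0.76 at 1, 4 and 8 weeks. Myl4 minus the sarcomere mean lies above the control range at 1 and at 8 weeks and overlaps it at 4 weeks.

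The genes whose signals were most like that of Myh3 over the 20 arrays were a mixture of matrix and muscle genes: Plod2 (r = 0.90), a collagen lysyl hydroxylase, Tnnt2 (0.89), cardiac and embryonic troponin T, Fap (0.87), a protease of activated fibroblasts, Hacd1 (0.87), an enzyme of long fatty acids needed for muscle growth, Cthrc1 (0.87), a secreted protein of healing tissue, and Tnn (0.86), a tenascin. Over deviations from the group means, the nearest genes were Frem2 (0.85), Tnnt2 (0.85), Garin2 (0.84), Klk1 (0.83), Tnni1 (0.83), the slow skeletal troponin I, and Msantd3 (0.82). Tnnt2 stood in both lists. By rank over the 20 arrays, the order of the first list differed. Spearman's rho with Myh3 was 0.80 for Hacd1, 0.78 for Plod2, 0.73 for Cthrc1, 0.70 for Tnnt2, 0.59 for Fap and 0.43 for Tnn. Over deviations rho was 0.79 for Frem2, 0.77 for Tnni1, 0.66 for Tnnt2, 0.65 for Garin2, 0.64 for Msantd3 and 0.62 for Klk1. For Myog the nearest over the 20 arrays were Bex1 (0.86), Frem2 (0.86), Hspb8 (0.85), Casq2 (0.85), the slow and cardiac calsequestrin, Tnni1 (0.85) and Pdlim7 (0.84). Over deviations they were Asb5 (0.88), Bex1 (0.85), Hspb8 (0.85), C1h19orf47 (0.85), Mybph (0.83) and Trim55 (0.83), the last a ring finger protein of the sarcomere. The correlations over all 20 arrays include the differences between groups, and neither set bears a test.

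Other muscle genes of embryonic and fetal life, 11 measured of 14 listed, followed a similar course. The list also holds fetal genes not confined to muscle, such as Igf2 and Mest, and slow isoforms, such as Tnnc1 and Tnni1. At 1 week 3 were called higher than control and 0 lower, with a median difference of 0.54, and the medians were -0.10 at 4 weeks and -0.06 at 8 weeks, where 0 and 1 were called. Of all probe sets, 11.2% were called higher at 1 week, and 13% and 11.6% in either direction at 4 and 8 weeks. Against 1 week, 1 was called lower at 4 weeks and 2 at 8 weeks, with a median of -0.90 in each. There 0.126% and 0.233% of all probe sets were called in either direction. The list was written with earlier results of these data known. Igf2, the fetal growth factor, passed in 3 comparisons: its signals were 5.84, 5.41, 4.96, 6.64 and 5.21 in control, 6.65, 6.75, 7.74, 6.67 and 6.17 at 1 week, 4.87, 4.94, 5.20, 5.06 and 4.65 at 4 weeks, then 5.12, 5.28, 4.53, 4.85 and 4.89 at 8 weeks. It rose by 1.19 over control at 1 week (adjusted p = 0.0034), although control replicate 4 was level with the 1-week animals, and it was lower than at 1 week by a log2 difference of -1.85 at 4 weeks (adjusted p = 0.0017) and -1.86 at 8 weeks (adjusted p = 0.0016). All 3 calls of Igf2 held with each array left out in turn. With the hybridization signal as a covariate the call against control was lost (1.03, adjusted p = 0.417), and those against 1 week were kept (adjusted p = 0.0039 at 4 weeks and 0.0052 at 8 weeks). Under that covariate the calls against control of the genes in this and the other lists were lost, except Mef2d, Postn and Cthrc1 at 1 week and Birc5 at 8 weeks.

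Tnnt2, whose troponin T is made in embryonic skeletal as well as cardiac muscle, had signals of 4.81, 5.37, 7.89, 4.61 and 4.19 at 1 week, against 4.46, 3.60, 3.66, 3.28 and 4.21 in control. It rose by 1.53 (adjusted p = 0.015), and by between 0.90 and 1.83 with each array left out, the call holding each time. The later signals, from 3.47 to 4.19 at 4 weeks and from 3.67 to 4.07 at 8 weeks, lay within the control range. Tnnc1, the slow and cardiac troponin C, rose by 1.55 (adjusted p = 0.024), and lost the call without control replicate 2 (adjusted p = 0.0532). Mest, an imprinted gene of fetal tissue, fell at 8 weeks by a log2 difference of -0.79 from control (adjusted p = 0.029) and -1.33 from 1 week (adjusted p = 0.011); the first call was lost without control replicate 1, 2 or 4 or 8-week replicate 2, 3 or 4, and the second without 1-week replicate 1 or 3 or 8-week replicate 2.

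Genes of the satellite cell surface and of Notch signalling, which keeps satellite cells quiescent, had calls in both directions. Of 26 listed, 21 were measured, and at 1, 4 and 8 weeks 1, 0 and 1 were higher and 1, 2 and 2 lower than control, with medians of 0.02, -0.07 and 0.07, where 21.3%, 13% and 11.6% of all probe sets were called in either direction. At 1 week Cd34, a sialomucin that quiescent satellite cells share with endothelium and fibroblasts, rose by 0.81 (adjusted p = 0.0091), and Met, the receptor of hepatocyte growth factor, fell by 0.70 (adjusted p = 0.011). Both held with each array left out in turn. Ncam1, a cell adhesion molecule of satellite cells, nerve and denervated fibres, fell at 4 weeks by 1.21 (adjusted p = 0.015), which also held.

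Of the genes of myoblast fusion, 19 were measured of 31 listed. At 1, 4 and 8 weeks 1 was higher than control each time, the immunoglobulin protein gene Kirrel1, and 2, 0 and 0 were lower. Of all probe sets, 21.3%, 13% and 11.6% were called in either direction. Jam2, a junctional adhesion molecule of endothelium and of fusing cells, fell by 0.75 at 1 week (adjusted p = 0.011) and held with each array left out in turn. Kirrel1 rose by 0.55, 0.61 and 0.62 (adjusted p = 0.035, 0.033 and 0.033), but these calls were lost without control replicates 1, 2 or 3 in each comparison, without 1-week replicate 1, 2, 3 or 5, without 4-week replicate 1, 2 or 3 and without 8-week replicate 2 or 4, with an adjusted p of up to 0.0933.

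Partners and regulators of the myogenic factors, 35 measured of 44 listed, had 5 genes called higher and 4 lower at 1 week (median 0.14), where 11.2% and 10.2% of all probe sets were called. At 4 weeks 1 was higher and 1 lower, and at 8 weeks 3 were higher and 0 lower (medians -0.12 and 0.02). There 13% and 11.6% of all probe sets were called in either direction. Id3, which binds E proteins and keeps them from the myogenic factors, had signals of 3.68, 4.39, 4.30, 4.63 and 3.82 in control, 5.20, 5.24, 5.60, 5.01 and 5.0 at 1 week, 5.33, 4.29, 5.30, 5.04 and 4.82 at 4 weeks, then 5.25, 5.19, 5.38, 5.46 and 5.37 at 8 weeks. All animals at 1 and 8 weeks were above all controls. Id3 rose by 1.05, 0.79 and 1.17 at 1, 4 and 8 weeks (adjusted p = 8.3e-04, 0.010 and 8.3e-04), and each call held with each array left out in turn. All 3 were lost with the hybridization signal as a covariate (adjusted p = 0.080, 0.139 and 0.079).

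Twist1, a helix-loop-helix protein of mesenchyme that opposes the myogenic factors, rose by 0.98 at 1 week (adjusted p = 0.0016), and Cdkn1c, a cell cycle inhibitor of differentiating cells, rose by 0.80 (adjusted p = 0.011). Hdac4, a deacetylase that binds MEF2 proteins, fell by 0.64 (adjusted p = 0.0019), and Mef2d, a partner of the myogenic factors, fell by 0.72 (adjusted p = 0.013). These 4 calls held with each array left out in turn. With the hybridization signal as a covariate Mef2d stayed called (adjusted p = 0.033), and Twist1 (adjusted p = 0.161), Cdkn1c (adjusted p = 0.322) and Hdac4 (adjusted p = 0.141) did not. Mef2b rose at 8 weeks by 0.83 (adjusted p = 0.0078), which held with each array left out and was lost under the covariate.

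**Figure D5:**
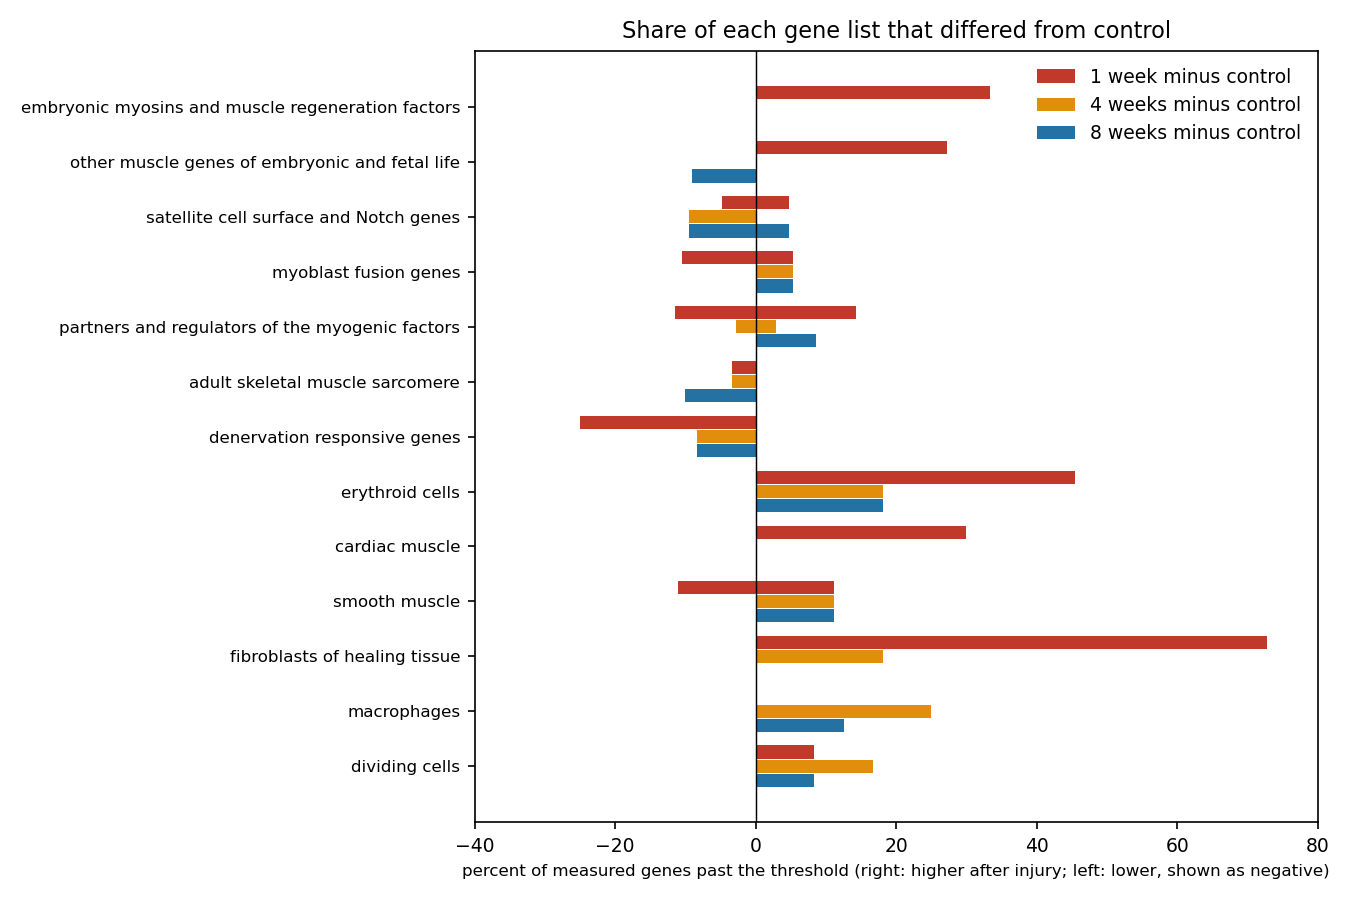
Percent of each gene list's measured genes called higher (bars to the right of 0) or lower (bars to the left) than control at 1, 4 and 8 weeks (limma, adjusted p under 0.05 over all probe sets). The longest bar at 1 week is that of the fibroblast genes (8 of 11 higher), the embryonic list and its 11 companion genes have 3 higher each, and denervation and adult sarcomere genes have lower calls alone. Over all probe sets 11.2% were called higher and 10.2% lower at 1 week.

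Genes of the nerve-muscle junction and of the response to denervation, 12 measured of 14 listed, were called only in the downward direction: 3 at 1 week, 1 at 4 weeks and 1 at 8 weeks (medians -0.37, -0.49 and -0.30). Of all probe sets, 10.2% were called lower at 1 week, and 13% and 11.6% in either direction at 4 and 8 weeks. Chrnb1, the beta subunit of the muscle acetylcholine receptor, fell by 1.47 at 1 week (adjusted p = 0.0023), with signals of 4.53, 4.42, 4.74, 4.19 and 4.54, against 5.73, 6.37, 4.55, 6.22 and 6.90 in control. Control replicate 3, low in muscle signal, lay within the 1-week range. The call held with each array left out in turn. Without control replicate 3 alone, 6 of the 12 genes were called lower at 1 week, 6 at 4 weeks and 5 at 8 weeks. Calls over all probe sets then also increased, to 3966, 2599 and 2356 from 3209, 1952 and 1748. Of the 30 adult sarcomere genes, 1, 1 and 3 were lower than control at 1, 4 and 8 weeks and 0 higher (medians -0.18, -0.34 and -0.55), where 10.2% of all probe sets were called lower at 1 week and 13% and 11.6% in either direction at 4 and 8 weeks. Myl3, the slow and cardiac alkali light chain, was lower at each time, with differences of -1.13, -1.29 and -1.37 (adjusted p = 0.013, 0.010 and 0.0077). Without control replicate 3, the sarcomere counts were 4, 5 and 6 lower, beside the same rise in calls over all probe sets.

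Markers of other cells moved beside Myh3, Myl4 and Tnnt2 at 1 week, when 11.2% of all probe sets were called higher and 10.2% lower. Fibroblast genes of healing tissue, all 11 measured, were 8 higher and 0 lower than control at 1 week (median 1.03), and their mean signal lay between 7.86 and 9.14 at 1 week and between 7.07 and 7.58 in control. Cthrc1 rose by 3.14 (adjusted p = 3.9e-06), Postn, an adhesion protein of the healing matrix, by 2.53 (adjusted p = 2.5e-05) and Col1a1, the main fibrillar collagen chain, by 1.80 (adjusted p = 8.3e-06). Erythroid genes, 11 measured of 16, were 5 higher and 0 lower (median 0.53), with a mean signal between 4.49 and 5.02 at 1 week and between 3.89 and 4.48 in control. Of the called genes, Gata1 averaged 2.93 at 1 week and 2.38 in control, under the background means of 3.39 and 2.70. Slc4a1, also called, averaged 3.83 and 3.20. Alas2, Ahsp, Hemgn, Epb42, Klf1 and Rhag were not called. Hbb, the beta chain of haemoglobin, rose by 2.18 at 1 week (adjusted p = 2.6e-04), 1.81 at 4 weeks and 1.84 at 8 weeks. Cardiac muscle genes, 10 measured of 11 and Tnnt2 among them, were 3 higher and 0 lower (median 0.30), with a mean signal between 4.59 and 4.93 at 1 week and between 3.94 and 4.47 in control. Nppa, the atrial natriuretic peptide, averaged 3.88 at 1 week and 3.22 in control, close to the background probe sets. Myl4 is also made in the heart atria and in red cell precursors, and the part of these other cells in the Myl4 and Tnnt2 values was not tested.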

How the data were processed

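Vocal fold RNA of 20 rats (4 groups of 5) was measured on 1 array per animal. The authors deposited log2 RMA signals, which are background corrected within an array and summarised per probe set. The methods name Clariom S arrays and global scaling in the TAC software, whereas the labels name Clariom D arrays and Affymetrix Expression Console, with no version, is the tool of the submitters' processing notes, so the chip type and the scaling step are not settled. RMA was not run again. Values ran from 0.63 to 12.84, within-group array correlations from 0.947 to 0.986, and 0 pairs of arrays were identical. Gene names came from the platform annotation, and where several probe sets had the same name the brightest on average stood for the gene.

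The linear model of limma 3.58.1 (R 4.3.3; functions lmFit and eBayes) was fitted to the deposited values, with all 4 groups in 1 fit and no covariate. Within each of 6 comparisons, which share arrays, the Benjamini-Hochberg adjustment ran over 15049 named probe sets, with a threshold of 0.05. The error is the spread between animals, with a precision limited by how few arrays there are. Levels of different probe sets were set side by side for the background, for the sarcomere mean and for Myh3 minus Myh8. Probe sets differ in brightness, so such levels have no absolute meaning. Figures were drawn with Python 3.11.15 and matplotlib 3.10.9.

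The genes and the 12 other lists were chosen with earlier results of these data known. Named are all measured members; of each other list, up to 4 genes with the smallest adjusted p at 1 week and those needed to say what a count holds; and, for Myh3 and Myog, the 6 most similar genes by Pearson's r. The replicate numbers did not pair the animals and served as names. The procedure was checked on simulated data. Alternatives were quantile normalization, median centring, a filter on dim probe sets, all 24740 probe sets other than controls, array weights, intensity trend with robust moderation, the methods' one-way analysis without moderation, the 2 groups alone, a fold threshold, a replicate block, covariates, mean over a gene's probe sets, and leaving out each array.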

Additional observations from a re-analysis of the deposited data

Results flagged for a closer look

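Of 36 sets of 5 animals (9 genes in 4 groups), 1 had an animal far from the rest. In Myod1 at 8 weeks, replicate 5 had a log2 signal of 4.13, and the next highest of the group was 3.28. The gap was 0.7735 of the group's range, above the 95% critical value of 0.71 for 5 samples. Chance gives about 1 such case in 20 groups. Without this animal the Myod1 difference from control at 8 weeks was 0.38.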

How the results depend on the processing

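The 3 calls at 1 week were 0 with the hybridization signal as a covariate (Myh3 2.73, Myl4 1.21), where 64 probe sets were called in place of 3209, and 3966 without control replicate 3. Leaving out 1 array gave 2 to 3 calls there, 0 to 1 at 4 and 8 weeks against control and against 1 week, and 0 between 8 and 4 weeks. At 1 week the count was 2 under the one-way analysis without moderation and under the fold threshold of 1 (both without Myog), and 4 with the sarcomere covariate (Myh8 gained, 0.81). These settings called 3055, 433 and 3577 of all probe sets, in place of 3209. Other counts that changed were 1 at 4 weeks against control with only the groups compared (Myh3) or the sarcomere covariate (Myod1), 1 at 8 weeks against control with array weights (Myh8) and 2 with the sarcomere covariate (Myl4, Myod1), and 1 at 8 weeks against 1 week with array weights (Myh3) or the sarcomere covariate (Myh8). In the same order, 956 and 2083 of all probe sets were called in place of 1952 at 4 weeks against control. At 8 weeks they were 3619 and 1801 in place of 1748 against control, and 90 and 47 in place of 35 against 1 week. Same-numbered animals did not deviate together (mean r -0.02, from -0.27 to 0.32 over 30 pairs, 6 of 20 arrays closest to their own number); with the replicate number as a block the counts were 2 at 1 week and 0 in the other comparisons.

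Signs turned under some settings, and not only for small differences. Against control, those that turned included 0.93 for Myog at 1 week, 0.68 for Myl4 at 4 weeks and -0.57 for Myf5 at 8 weeks. Against control, the hybridization covariate gave -0.047 for Myog at 1 week, -0.17 for Myl4, -0.67 for Myog, -0.44 for Pax7 and -0.71 for Cdh15 at 4 weeks, and -0.61 for Myog and -0.32 for Pax7 at 8 weeks; it gave 0.11 for Myf6 at 4 weeks against 1 week. The sarcomere covariate gave 0.45 for Myf6 at 4 weeks, and 0.10 for Myf5, 0.36 for Myf6 and 0.19 for Cdh15 at 8 weeks against control; against 1 week it gave 0.16 for Myf6 at 4 weeks, and 0.10 for Myf5 and 0.078 for Myf6 at 8 weeks. Quantile normalization gave 0.0045 for Myf6 at 4 weeks against control, and array weights -0.070 for Myod1 at 8 against 4 weeks.

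With 1 array left out, the turned differences ranged as follows. At 1 week against control they were -0.67 to 0.11 for Myf5 and -0.44 to 0.41 for Myf6. At 4 weeks against control they were -0.038 to 0.36 for Myog, -0.55 to 0.31 for Myf6, -0.0065 to 0.23 for Pax7 and -0.090 to 0.18 for Cdh15. At 8 weeks against control they were -0.00037 to 0.40 for Myog, -0.88 to 0.10 for Myf6 and -0.22 to 0.087 for Cdh15. Against 1 week they were -0.22 to 0.073 for Myf6 at 4 weeks, and -0.76 to 0.032 for Myf6 and -0.24 to 0.027 for Pax7 at 8 weeks. At 8 against 4 weeks they were -0.25 to 0.035 for Myh3, -0.67 to 0.0099 for Myh8, -0.057 to 0.75 for Myl4, -0.16 to 0.18 for Myog, -0.17 to 0.15 for Myod1, -0.041 to 0.62 for Myf5, -0.65 to 0.14 for Myf6, -0.043 to 0.27 for Pax7 and -0.24 to 0.012 for Cdh15. The cause was not tested in any of these. Myog, Myod1, Pax7 and Cdh15 were never above the brightest background probe set, which limits what their differences can show.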

Other observations

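Further lists were measured beside the muscle genes and are given as counts. Over all probe sets, 21.3%, 13% and 11.6% were called in either direction against control at 1, 4 and 8 weeks. Of 8 macrophage genes, 0 were called against control at 1 week, 2 were higher at 4 weeks and 1 at 8 weeks, with median log2 differences of 0.46, 0.75 and 0.65. Cd163, a haemoglobin scavenger receptor of resident macrophages, rose by 1.25 at 4 weeks (limma adjusted p = 0.0084), and this call held with each array left out in turn. Of 12 measured genes of dividing cells (14 listed), the calls were 1, 2 and 1 higher at the same times, with medians of 0.05, 0.26 and 0.25. Birc5, survivin, rose by 0.90, 0.81 and 1.15 at 1, 4 and 8 weeks (limma adjusted p = 7.4e-04, 0.0035 and 2.6e-04), each call holding with each array left out. Of 9 smooth muscle genes, 1 was higher and 1 lower at 1 week, and 1 was higher at 4 and at 8 weeks. The lower one was Myh11, the smooth muscle myosin heavy chain, which fell by 1.08 (limma adjusted p = 0.0017) and held with each array left out. The medians over the 9 were 0.13, -0.11 and -0.09. With the hybridization signal as a covariate the Birc5 call at 8 weeks was the one kept among these lists.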
